A study of Mus musculus with 6 samples.

Results

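The transcripts described here were read above background in control fetal mouse testes and mostly not in testes that made active NOTCH1 in their Sertoli cells, the nurse cells of the germ line. They were chosen by measured values of these same arrays. A probe belonged to the set when its detection p-value, which sets it against the negative controls of its array, was under 0.05 on all 3 control arrays and at or above 0.05 on at least 2 of 3 overexpressor arrays, and when its signal divided by the array's mean signal was lower in the overexpressor than in the control of every dam. Of 45281 probes 186 met this rule, or 0.411%. They comprise 147 probes with a gene name, covering 146 of the 18042 named genes on the array, 4 probes of clone-named or predicted genes, 1 probe shared by several genes and 34 probes with no gene name in the platform annotation. The mirrored rule, with detection on all 3 overexpressor arrays and none on at least 2 control arrays, was met by 151 probes, or 0.333%, with 117 named genes.

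The overexpressors were Amh-cre;RosaNICD/+ fetuses and the controls were RosaNICD/+ littermates without Amh-cre, all at embryonic day 14.5 and of mixed B6/CD1 background, with 3 fetuses in each group. The dams were heterozygous for Tg(AMH-cre)1Flor and the sires homozygous for Gt(Rosa)26Sortm1(Notch1)Dam/J, so every fetus carried 1 copy of the allele that makes the active NOTCH1 fragment once Cre has acted. Each of 3 dams gave 1 overexpressor and 1 control, and the testis pair of 1 fetus made 1 array sample of total RNA. Amh-cre is driven by the Amh promoter, which is active in Sertoli cells, and it was present in overexpressors only, so its own effect and that of active NOTCH1 cannot be told apart.

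NOTCH1 is a surface receptor whose intracellular domain, once cut free, enters the nucleus and turns on targets through the DNA-binding protein RBPJ. Among those targets are the HES and HEY repressors, which bind E-box and related sites and shut other genes down. At this stage Sertoli cells enclose germ cells that have entered the male pathway, in which the piRNA machinery and de novo DNA methylation are being set up.

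Between 19459 and 20285 probes per array were above background. Processed intensities, used below, are the authors' raw signals scaled so that each array has a mean of 387.2. On that scale undetected probes had a median of 94.58, 101.0 and 104.5 in overexpressors 1 to 3, and of 98.08, 102.5 and 108.4 in controls 1 to 3. The background level itself was thus lower in the overexpressor of each dam, and its part in the set's membership was not tested. Defining genes of the tissue were above background on all 6 arrays. The Sertoli cell regulator Sox9 was between 4524 and 6327 in overexpressors and between 4364 and 5671 in controls with its brighter probe, and the Leydig cell enzyme gene Cyp17a1 between 21750 and 27250 in overexpressors and between 24440 and 25430 in controls. Amh, the hormone gene that marks fetal Sertoli cells, was at 194.0, 171.4 and 330.6 in overexpressors 1 to 3 against 424.9, 331.9 and 468.1 in controls 1 to 3. Its groups did not overlap, but its log2 fold change of -1.24 ± 0.38 did not pass (limma adjusted p = 0.32, 0.0749 under the dam block).

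The word lost claims more than the signals show, because most members were close to background in both groups. The median member had a mean processed intensity of 112.3 in overexpressors and 126.2 in controls. In controls 170 of the 186 members averaged under 150, and 7 averaged over 200. Their control detection p was 0 on all 3 arrays for 8 members and reached 0.01 or more on at least 1 array for 162. On the log2 scale after background correction and quantile normalization (limma's neqc), the fold change of overexpressor over control had a median of -0.45 over the members, against -0.00 over all 19889 probes tested. Those tested were above background on at least 3 of the 6 arrays, and every member passed that filter through its 3 controls, so the direction and part of the size of these changes come from the rule and carry no test.

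Only 52 members were below the detection threshold on all 3 overexpressor arrays, and 134 were still detected on 1 of them. That 1 array was overexpressor 1 for 70 members, overexpressor 2 for 41 and overexpressor 3 for 23. The groups did not overlap in processed intensity for 129 members (69.4%). Over all probes tested, 8.36% were lower in overexpressors without overlap, a share from which nothing is read because the rule used the same contrast. The limma fit called 5 members at an adjusted p under 0.05, namely both member probes of Krt42, Ly6g6e, C1ql2 and 1 unnamed probe. It called 0.568% of all probes tested in either direction, 0.161% as lower and 0.407% as higher. With the dam as a block it called 9 members, and over all probes tested 93 as higher and 64 as lower. The calls among members again rest on the contrast that chose them.

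**Figure D1:**
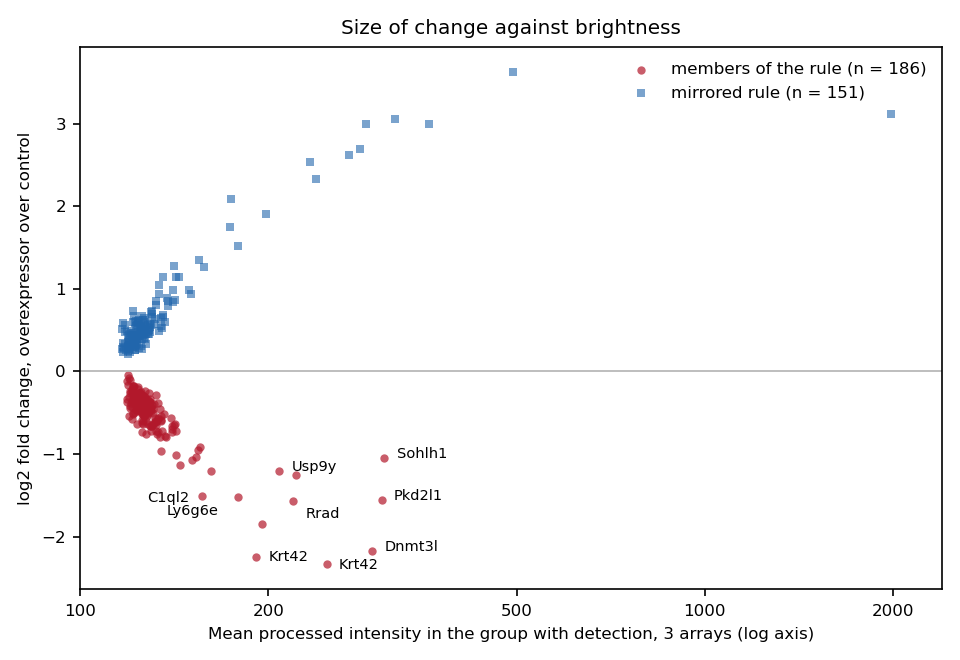
Each point is 1 probe, with the members of the rule in red and the probes of the mirrored rule in blue. The horizontal axis is the mean processed intensity of the group in which the probe was detected on all 3 arrays (controls for members, overexpressors for the mirrored set), on a log axis, and the vertical axis the log2 fold change of overexpressor over control. Members extend down to -2.34, while the mirrored set extends up to 3.63, and most points of both sets crowd under an intensity of 150.

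The yardstick of the mirrored rule shows how much of the set such a threshold finds in either direction. Members outnumbered mirrored probes by 1.23 to 1, but 16 members and 20 mirrored probes differed by more than 1 on the log2 scale. The limma fit called 5 members and 13 mirrored probes, and the groups did not overlap for 129 members and 64 mirrored probes, where 5.94% of all probes tested were higher in overexpressors without overlap. The largest mirrored change was 3.63, against -2.34 among members. The order of the counts depended on the scaling: when signals were divided by the array's median, 160 members stood against 202 mirrored probes, and with neqc values 166 against 199. With both arrays of dam 2 left out there were 218 against 281, and when detection had to be under 0.01 and absence at or above 0.05 there were 24 against 40.

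**Figure D2:**
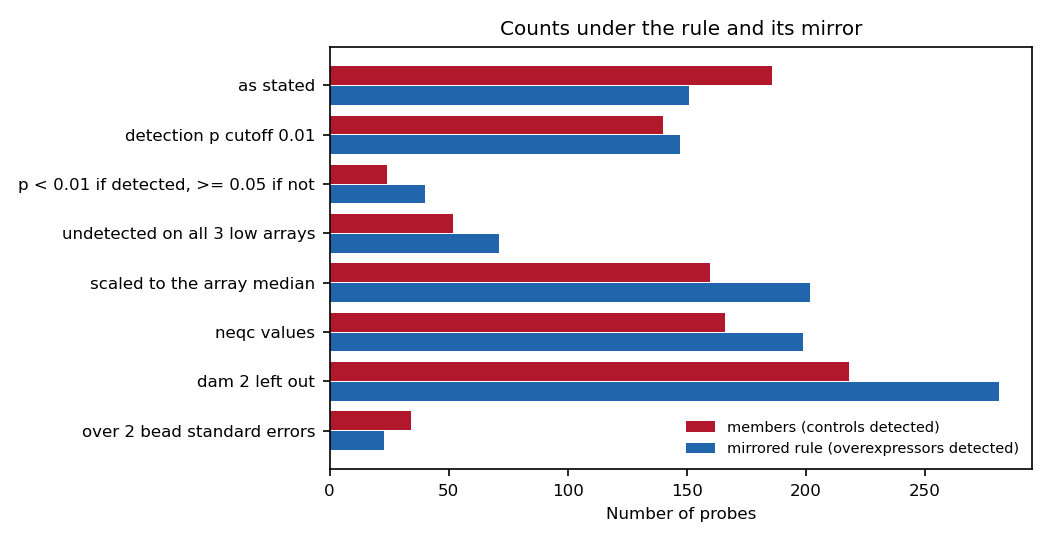
Bars give the number of probes that met the rule (red) and its mirror (blue) as stated and under the other settings named at the left. Members outnumber mirrored probes as stated (186 against 151) and when the difference had to exceed 2 bead standard errors in every dam (34 against 23), but not under the other settings drawn.

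At the edges of the rule the detection p-values on both sides were close together, while the contrast between groups varied on each side. Naa60, Anxa1 and Casp12 were just inside, with a highest control detection p of 0.0491, and Fam166b, Afp and Tmem150c just outside at 0.0502. Anxa1 averaged 109.4 in overexpressors and 121.3 in controls, Tmem150c 106.3 in overexpressors and 121.2 in controls, and Afp 107.7 in overexpressors and 134.8 in controls. On the side of the overexpressors Gcfc2, Axl and Fut8 were just inside, with a middle detection p of 0.0502, and Mzb1, Zfp658 and Dido1 just outside at 0.0481. Fut8 averaged 115.0 in overexpressors and 119.2 in controls, and Zfp658 113.3 in overexpressors and 130.1 in controls.

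Promoter sequences are shown for 5 members with a log2 fold change under -1 (a keratin, a C1q-domain protein, a DNA methylation cofactor, a hormone receptor and a germ cell transcription factor). They let the windows that HES and HEY repressors could reach be read beside the values. The 5 do not follow rank. Rrad, Pkd2l1, Xkrx, Usp9y, Cnksr1 and Drc1 had lower fold changes than Sohlh1 and Fshr but are not shown. Ly6g6e had no listed promoter. The share of these 5 windows with a match says nothing about the set. The windows are RefSeq sequences of GRCm38.p6, from 250 bases before to 50 after an annotated start, and 111 of the 146 named genes had at least 1. The capitals mark matches to CACGTG (the E-box), CACGCG or CACGAG (sites of HES and HEY proteins) or TGGGAA (RBPJ), searched on both strands. Krt42 is chr11:100269902-100270201 on the minus strand, C1ql2 chr1:120340332-120340631 on the plus strand, Dnmt3l chr10:78049592-78049891 on the plus strand (the one of 3 listed starts with a match), Fshr chr17:89200626-89200925 on the minus strand and Sohlh1 chr2:25847199-25847498 on the minus strand.
Krt42: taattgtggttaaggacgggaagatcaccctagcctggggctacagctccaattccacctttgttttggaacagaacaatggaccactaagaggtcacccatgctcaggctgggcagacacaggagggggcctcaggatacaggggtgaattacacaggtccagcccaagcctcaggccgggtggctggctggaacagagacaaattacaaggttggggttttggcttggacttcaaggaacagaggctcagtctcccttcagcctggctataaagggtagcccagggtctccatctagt
C1ql2: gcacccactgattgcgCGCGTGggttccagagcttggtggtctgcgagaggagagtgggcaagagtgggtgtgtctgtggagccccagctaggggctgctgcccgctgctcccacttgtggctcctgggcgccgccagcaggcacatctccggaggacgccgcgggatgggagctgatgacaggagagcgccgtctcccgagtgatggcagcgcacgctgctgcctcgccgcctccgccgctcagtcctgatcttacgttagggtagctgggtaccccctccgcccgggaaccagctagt
Dnmt3l: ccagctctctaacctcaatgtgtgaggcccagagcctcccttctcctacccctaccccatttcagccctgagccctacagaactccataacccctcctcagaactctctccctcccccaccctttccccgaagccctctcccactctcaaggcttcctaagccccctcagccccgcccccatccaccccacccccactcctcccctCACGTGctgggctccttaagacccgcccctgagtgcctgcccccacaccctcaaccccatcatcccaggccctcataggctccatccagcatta
Fshr: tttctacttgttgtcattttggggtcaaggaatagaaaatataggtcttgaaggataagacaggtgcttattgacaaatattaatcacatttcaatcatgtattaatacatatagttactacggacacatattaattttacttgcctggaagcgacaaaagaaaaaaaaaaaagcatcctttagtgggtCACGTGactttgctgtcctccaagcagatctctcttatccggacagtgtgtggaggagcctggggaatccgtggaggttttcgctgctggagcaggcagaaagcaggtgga
Sohlh1: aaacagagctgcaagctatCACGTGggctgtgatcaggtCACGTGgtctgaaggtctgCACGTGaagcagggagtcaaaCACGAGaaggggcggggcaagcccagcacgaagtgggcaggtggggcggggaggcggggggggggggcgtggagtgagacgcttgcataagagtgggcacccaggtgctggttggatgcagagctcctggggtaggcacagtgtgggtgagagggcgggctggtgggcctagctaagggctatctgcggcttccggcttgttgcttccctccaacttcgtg

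The Krt42 window held none of the 4 motifs, and that of C1ql2 held 1 CACGCG on the minus strand. Fshr held an E-box that begins 61 bases before the start, Dnmt3l one at 44 bases, and Sohlh1 held 3 E-boxes, at 231, 211 and 192 bases, and 1 CACGAG. Over all 143 promoters of the members' genes 11.9% held CACGTG, against 11.4% of 123 promoters in the mirrored set and 7.15% of all 32851 promoters. Among the 11 promoters of named members with a log2 fold change under -1, a class chosen after the values were seen, 4 did (Cnksr1, Dnmt3l, Fshr and Sohlh1). TGGGAA stood in 22.4% of the members' promoters and 25.6% of all, CACGCG in 9.79% and 9.27%, and CACGAG in 6.99% and 6.47%. CACGTG reads the same on both strands, and the motifs that begin with CACG differ in the letters that follow. A match describes letters only.

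The keratin gene Krt42 led the set, and 2 of its probes were members. It encodes a type I keratin, an epithelial intermediate filament protein, and its human counterpart is a pseudogene. One probe gave 101.5, 114.5 and 128.6 in overexpressors 1 to 3, against 255.0, 269.9 and 219.0 in controls 1 to 3. Every control exceeded every overexpressor, and among overexpressors number 3 alone was above background. The log2 fold change was -2.34 ± 0.22 (SE). A further Krt42 probe, which was no member, was above background on 0 overexpressor arrays and 1 control array. It averaged 97.08 in overexpressors and 108.4 in controls. The second member probe was undetected in all 3 overexpressors (93.43, 95.61 and 99.63) and detected in all 3 controls (207.5, 209.1 and 157.0), which makes it at least 3.24-fold lower.

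Such a bound sets the mean normalized log2 signal of the controls against that of the overexpressors, taking for each overexpressor array the higher of the probe's own signal and the lowest signal of any detected probe. It concerns the measured means only and holds no sampling error. A value above 1 follows largely from the rule, so the bounds here and below test nothing. Without background correction the first Krt42 probe stood at -1.08, since raw signals hold the background in both groups.

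Among the 16 keratin genes tested 1 rose, 2 fell and 13 did not pass. Over all 10999 genes tested 61 rose and 19 fell. The median log2 fold change of the keratin genes was -0.08, against -0.00 over all genes. Krt42 is 1 of the 2 that fell, and the rule had chosen it for its fall. The other that fell was Krt17, a keratin of stratified epithelia and hair, which lies next to Krt42 in the gene order of chromosome 11. It is no member because it stayed above background on all 6 arrays, with 128.6, 162.4 and 173.7 in overexpressors 1 to 3 against 546.3, 636.3 and 346.6 in controls 1 to 3 (log2 fold change -2.55 ± 0.32, limma adjusted p = 0.012). Krt14, the next tested gene on the far side of Krt17, stood at -0.22 ± 0.14 (limma adjusted p = 0.69). Krt79, a type II keratin gene, was the one that rose, at 3.25 ± 0.13 (limma adjusted p = 7.41e-05). Near-identical keratin sequences can share probe signal.

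Few other epithelial markers passed the threshold. Of 6 keratinocyte genes tested 1, Krt17, fell and 5 did not pass, and Krt5 and the epidermal regulator Trp63 were above background on 0 of 6 arrays. Of 12 mesonephric duct and epithelial genes 1, Ret, fell and 11 did not pass, with a median of -0.04. Ret is also on the list of the male germ cell programme. At an unadjusted limma p under 0.05, 4 of the 12 were lower and 1 higher. Over all 10999 genes tested 468 were lower and 572 higher at that limit. Krt8, a keratin of simple epithelia, stood at -0.43 ± 0.19 (limma adjusted p = 0.522).

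C1ql2 encodes a secreted C1q-domain protein known as an organiser of synapses in the brain. It gave 90.87, 106.2 and 113.6 in overexpressors 1 to 3, against 153.5, 142.6 and 172.6 in controls 1 to 3. The groups did not overlap, no overexpressor was above background, and the probe was at least 2.22-fold lower. Of 13 tested C1q-like, cerebellin and C1q/TNF genes 2 fell and 11 did not pass, with a median of -0.11. C1ql2 is 1 of the 2, and the rule had chosen it for its fall. Over all 10999 genes tested 19 fell. Besides C1ql2, the one that fell was Cbln4, a cerebellin gene of fetal Sertoli cells, at -1.20 ± 0.20 (limma adjusted p = 0.0474).

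Ly6g6e belongs to the Ly6 family of small surface proteins and lies in the Ly6 gene cluster of chromosome 17. It gave 105.7, 124.4 and 116.8 in overexpressors 1 to 3, against 155.2, 194.8 and 186.1 in controls 1 to 3. The groups did not overlap, and of the overexpressors the second alone was above background. The log2 fold change was -1.52 ± 0.20. A second Ly6g6e probe was above background on 0 arrays. Of 12 tested Ly6 and uPAR family genes 1, Ly6g6e, fell and 11 did not pass, and the median of 0.03 lay near that of all genes. That 1 call is the gene that the rule had chosen for its fall. Its cluster neighbours Ly6g6c and Ly6g6d were on the array but too dim to be tested.

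**Figure D3:**
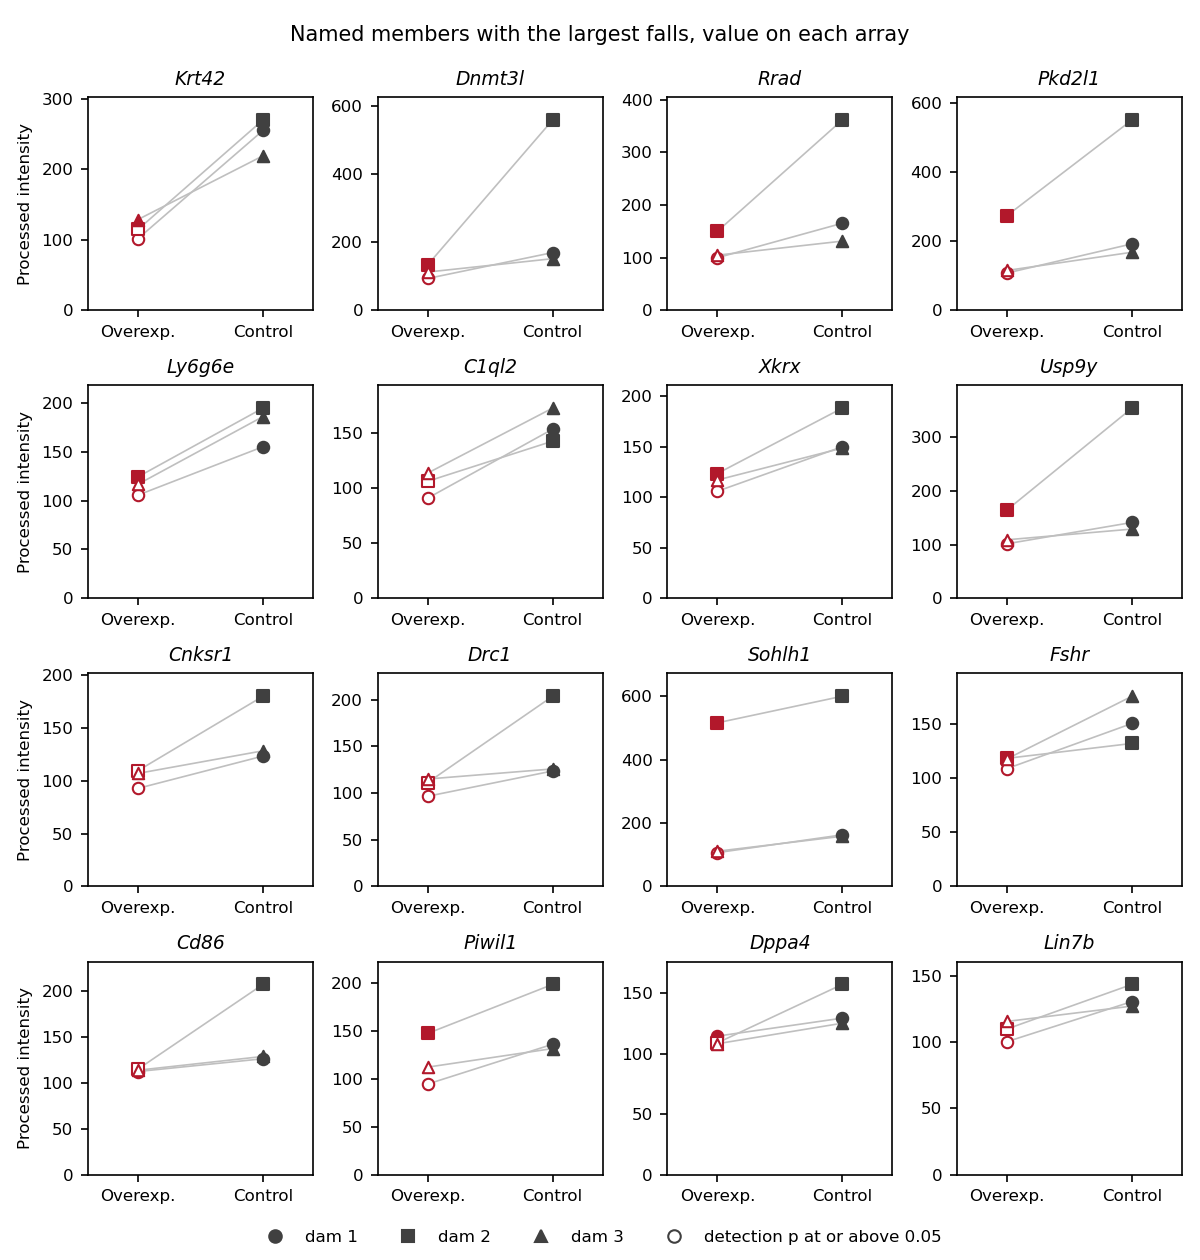
Processed intensity on each array for the 16 named genes with the lowest log2 fold changes among the members, overexpressors at the left and controls at the right of each panel, with 1 marker per dam and a line joining littermates. Open symbols are arrays on which the probe was not above background. By the rule, the overexpressor is lower than its littermate in all 3 litters of every panel. Across litters the groups do not overlap for Krt42, Ly6g6e, C1ql2 and Dnmt3l, but overlap for Rrad, Pkd2l1, Usp9y and Sohlh1. Dnmt3l, Rrad, Pkd2l1, Usp9y and Sohlh1 are highest by far in dam 2.

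Several of the lowest fold changes were in germ cell genes, and these differed between litters. Dnmt3l encodes the cofactor that guides de novo DNA methylation in male germ cells. It gave 93.0, 133.0 and 111.9 in overexpressors 1 to 3, against 169.1, 558.6 and 151.2 in controls 1 to 3. The groups did not overlap, but control 2 was far above the other controls. The log2 fold change of -2.18 ± 0.68 was -1.27 without control 2, and ranged from -2.77 to -1.27 with 1 array left out. Here and below, a fit without control 2 keeps overexpressor 2 and so breaks the litter pair. Fold changes with both arrays of dam 2 left out were not fitted. The second Dnmt3l probe gave 100.8, 148.4 and 120.3 in overexpressors 1 to 3 against 186.9, 685.8 and 150.5 in controls 1 to 3. It had the same order of arrays within the controls.

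Sohlh1 encodes a basic helix-loop-helix transcription factor of spermatogonia and oocytes. It gave 106.6, 515.6 and 111.0 in overexpressors 1 to 3, against 162.7, 599.5 and 158.3 in controls 1 to 3. The groups overlapped, because both testis pairs of dam 2 were several-fold brighter than the rest. The log2 fold change was -1.05 ± 1.13 in the fit without a dam block, whose error includes the litter difference. With 1 array left out it ranged from -2.38 to -0.11. The value of -0.11 was found without control 2, while its bright littermate, overexpressor 2, stayed in. A second Sohlh1 probe showed the same litter pattern, with 429.5 in overexpressor 2 and 533.8 in control 2.

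Piwil1, a PIWI protein gene best known from later spermatogenesis, gave 94.54, 147.4 and 112.2 in overexpressors 1 to 3, against 136.1, 198.6 and 131.6 in controls 1 to 3. The Tudor domain genes Rnf17 and Tdrd1, which act with piRNAs, had log2 fold changes of -0.64 ± 0.37 and -0.57 ± 0.29. In all 3 genes overexpressor 2 exceeded the lowest control. The groups therefore overlapped for these members.

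Dppa4, a gene of pluripotent cells and early germ cells, entered the set through 1 of its 4 probes, and the other 3 were above background on all 6 arrays. The member probe averaged 137.3 in controls, and its log2 fold change was -0.79 ± 0.27, and -0.51 without control 2. One of the others gave 2836, 4670 and 3173 in overexpressors 1 to 3, against 6169, 10820 and 5451 in controls 1 to 3. Its groups did not overlap, and the log2 fold changes of these 3 probes were -1.08, -1.02 and -1.42.

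Among the 19 genes of the male germ cell programme tested, 1 fell and 18 did not pass. Fold changes below 0 were found for 15 of them, and the median was -0.69 on the log2 scale against -0.00 over all genes. With the dam as a block 3 fell, where over all 10999 genes tested 71 rose and 44 fell. The gene that fell in both fits was Ret, which encodes the GDNF receptor (-1.90 ± 0.29, limma adjusted p = 0.0342). Nanos2, which holds germ cells to the male fate, was not near background: it gave 171.0, 387.9 and 258.8 in overexpressors 1 to 3 against 875.4, 1564 and 744.2 in controls 1 to 3 (-2.45 ± 0.45, limma adjusted p = 0.0681, and 0.0142 with the block). Of 23 general germ cell genes 1, Rhox9, rose and 22 did not pass, with a median of -0.24. Fold changes were below 0 for 16 of them. In the fit blocked by dam 2 fell. Among 16 pluripotency genes 0 passed in the limma fit and 6 had an unadjusted p under 0.05, all lower, and with the block 1 fell. Dazl, a germ cell marker of both sexes, was at 3090, 4584 and 2250 in overexpressors 1 to 3 and 3154, 4049 and 2722 in controls 1 to 3. Ddx4, another such marker, was lower in the overexpressor of every dam on one probe, as were 22.8% of all probes tested. That probe gave 151.8, 206.3 and 148.3 in overexpressors 1 to 3 against 198.4, 268.8 and 207.2 in controls 1 to 3. Its brighter probe gave 636.8, 592.8 and 361.9 in overexpressors 1 to 3 against 598.4, 760.7 and 458.3 in controls 1 to 3. The log2 fold changes of these Ddx4 probes were -0.75 ± 0.28 and -0.24 ± 0.28 (limma adjusted p = 0.44 and 0.86). In whole testes, fewer cells of a type and less RNA per cell cannot be told apart.

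The litter pattern was also seen in members not described above as germ cell genes, and the cell type that expresses them was not tested. Control 2 exceeded both other controls by more than 1.3 times for 12 members (6.45%), and controls 1 and 3 did so for 0. Over all probes tested, the same was true of control 2 for 2.31%, of control 1 for 0.674% and of control 3 for 0.623%. In 11 of the 12 members overexpressor 2 was also the highest of its group. The 1.3-fold limit was set after the values were seen, and the source of this litter difference was not tested.

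Among these 12 were Rrad, a small GTPase gene, Pkd2l1, which encodes a cation channel subunit, and Usp9y, a deubiquitinase gene of the Y chromosome. Pkd2l1 gave 107.6, 273.9 and 115.0 in overexpressors 1 to 3, against 192.1, 551.1 and 167.8 in controls 1 to 3. Usp9y gave 101.4, 164.2 and 108.8 in overexpressors 1 to 3, against 141.0, 353.6 and 128.7 in controls 1 to 3. Within each dam the overexpressor was lower, but across dams the groups overlapped for Rrad, Pkd2l1 and Usp9y. Without control 2, but with overexpressor 2 kept, their log2 fold changes were -0.80, -0.77 and -0.35. With all arrays they were -1.57 ± 0.67, -1.55 ± 0.84 and -1.20 ± 0.72, and the lowest values with 1 array left out were -2.22, -2.45 and -1.79. Removing only the control of a bright pair shrinks the difference, so these values do not show what dam 2 as a pair contributed. The Y-linked genes Eif2s3y and Kdm5d, each with a bright probe on all 6 arrays, stood at -0.14 ± 0.18 and -0.04 ± 0.15 (limma adjusted p = 0.87 and 0.959).

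The fitted values moved likewise for Cnksr1, a scaffold gene of Ras signalling (-1.13, and -0.71 without control 2), for Drc1 of the ciliary dynein regulatory complex (-1.07, and -0.51), for the T cell costimulation gene Cd86 (-0.95, and -0.42) and for Piwil1 (-0.92, and -0.48). Overexpressor 2 was kept in these fits too. The lowest values with 1 array left out were -1.40, -1.42, -1.29 and -1.36. Cnksr1 and Drc1 were undetected in all overexpressors, and with all controls they were at least 1.68-fold and 1.77-fold lower. Krt42, C1ql2 and Ly6g6e moved less, with -2.23, -1.65 and -1.38 without control 2. Xkrx, which encodes an XK-related membrane protein, gave 105.8, 123.3 and 116.9 in overexpressors 1 to 3 against 149.8, 188.0 and 148.5 in controls 1 to 3, without overlap.

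Fshr, the receptor through which follicle-stimulating hormone acts on Sertoli cells, gave 109.1, 118.6 and 118.1 in overexpressors 1 to 3, against 150.9, 132.4 and 176.1 in controls 1 to 3. The groups did not overlap, although all 6 values were low, and the log2 fold change was -1.03 ± 0.22. A second Fshr probe stayed above background on all 6 arrays and averaged 132.2 ± 4.71 in overexpressors and 164.7 ± 16.2 in controls (SD, n = 3 each). The remaining one was above background on 0 arrays.

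Serpina5, a serine protease inhibitor gene needed for male fertility in mice, entered the set through a probe at the edge of detection, with 95.26, 106.7 and 102.0 in overexpressors 1 to 3 against 119.8, 117.2 and 125.5 in controls 1 to 3. Its other probe was detected on all 6 arrays and gave 202.7, 178.3 and 268.3 in overexpressors 1 to 3, against 611.8, 382.2 and 659.0 in controls 1 to 3. The groups did not overlap on that probe either, and its log2 fold change was -1.82 ± 0.32, while the member probe was at least 1.09-fold lower. The brighter probe did not pass the limma threshold. Of 17 serpin, WFDC and Kazal genes tested by their brightest probe 1 rose and 0 fell. Foxr1, a forkhead transcription factor gene, had -0.74 ± 0.27 on the member probe (limma adjusted p = 0.434). A further Foxr1 probe detected on 6 arrays had -1.67 ± 0.38, and its adjusted p is not given here.

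Of the list of 23 fetal Sertoli cell genes tested, 0 had a member probe, where 1.36% of all genes tested had one, so a list of this size says little about membership. Of these 1, Cst9, rose, 1, Cbln4, fell and 21 did not pass. Fold changes were below 0 for 15 of them, with a median of -0.16. With the dam as a block 4 of the list fell, where over all 10999 genes tested 71 rose and 44 fell. Fshr, a member whose receptor acts on Sertoli cells, is not on this list. Lists of Leydig, interstitial, myoid, endothelial, erythroid, neuronal and muscle genes held 0 member genes. Of their 80 genes tested 0 passed in the limma fit, 8 had an unadjusted p under 0.05, and 1 passed with the dam as a block. The macrophage and leukocyte list held 0 member genes and 1 call, the protease gene Ctsw, which fell (-1.50 ± 0.25, limma adjusted p = 0.0464). That list does not hold every leukocyte gene, and the member Cd86 is not on it.

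The other named members among the lowest fold changes were of mixed function and dim. The bounds given for them hold no sampling error. Lin7b, a cell polarity scaffold gene, was at least 1.49-fold lower in its means, and Clec1a, a C-type lectin gene, at least 1.47-fold. Adh4, an alcohol dehydrogenase that can oxidise retinol, was at least 1.22-fold lower, with control detection p-values up to 0.0449. Dnm3os, a noncoding transcript that carries microRNAs, was at least 1.55-fold lower on its member probe. The signalling gene Irak3 was at least 1.32-fold lower, the GPI anchor gene Pigs at least 1.38-fold and Eipr1, on its member probe, at least 1.29-fold. Other Eipr1 probes detected on all 6 arrays had log2 fold changes of -0.04, -0.31 and -0.13, the first on the brightest probe. Traf6, a signalling adaptor gene, and Ifnlr1, the interferon lambda receptor gene, had log2 fold changes of -0.70 ± 0.31 and -0.65 ± 0.21 on their member probes. Brighter probes on all 6 arrays stood at -0.04 and 0.09 for Traf6, and at -0.76 for Ifnlr1. Miox, a kidney enzyme gene, had a log2 fold change of -0.79 (-0.49 without control 3) and Plppr4, a neuronal membrane protein gene, of -0.73. Klhl30 and the matrix gene Matn4 had log2 fold changes of -0.66 and -0.64. On the member probe, each control exceeded every overexpressor for each of these genes except Traf6.

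Over all 10999 genes tested 150 had a member probe, or 1.36%. Of 237 Zfp zinc finger genes tested 4 had one (Zfp428, Zfp711, Zfp786 and Zfp963), or 1.69%, and of 77 ion channel genes 2 (Cacna1a and Gria2), or 2.6%. Of 34 olfactory and related receptors 2 had one (Olfr802 and Olfr1161), or 5.88%, and of 167 other solute carriers 1 (Slc25a4), or 0.599%. With counts this small, nothing is read from these shares. Zfp428 was undetected in all overexpressors and at least 1.17-fold lower, and the fitted log2 fold changes of the others lay between -0.58 and -0.30. Of the 11 NOTCH targets tested and of the 20 receptors, ligands and pathway components tested, 0 had one. Hey1, a direct NOTCH target, rose by 1.27 ± 0.15 (limma adjusted p = 0.00878).

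Other probes of the same genes show how often a member stood for a transcript that stayed present. Of the 146 named genes 109 had at least 1 further probe. For 62 of them a further probe was above background on all 6 arrays, for 25 the further probes were above background on 0 arrays, and 22 lay in between. The 99 further probes detected on all 6 arrays were lower in 71 cases and higher in 28, with a median of -0.11 on the log2 scale. In the mirrored set 42 of 79 such genes had a further probe on all 6 arrays, and the median of the 58 probes was 0.11. Axl, a receptor tyrosine kinase gene, averaged 114.9 in overexpressors and 125.3 in controls on its member probe, but 6139 ± 793 in overexpressors and 5784 ± 494 in controls on another (SD, n = 3 each). The histone gene H3f3a, the receptor gene Tgfbr2 and Dnm3os likewise had another probe above background on all 6 arrays, with log2 fold changes of -0.20, 0.00 and 0.18. Whether such pairs read different transcript forms was not tested.

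**Figure D4:**
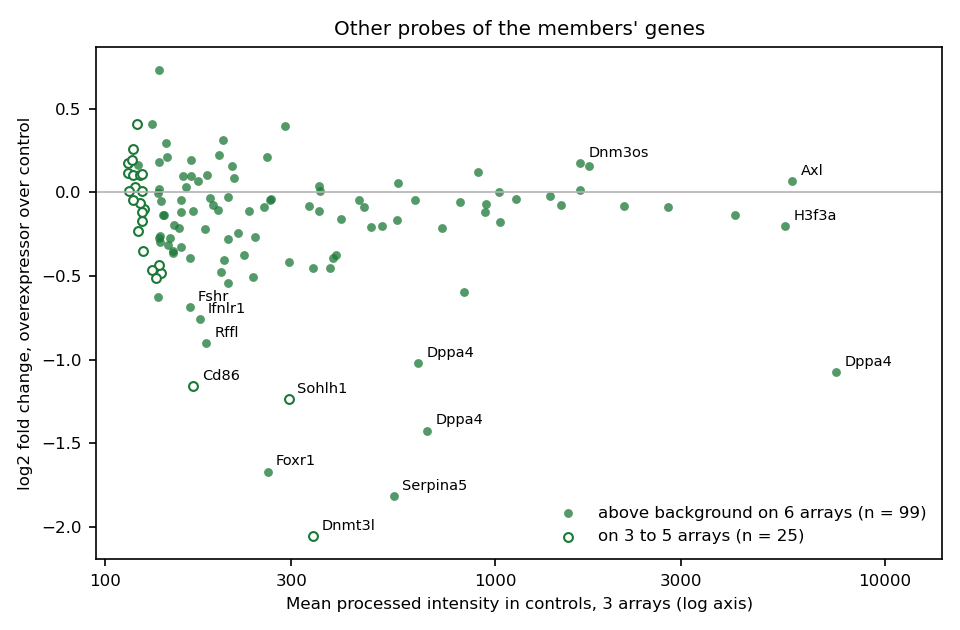
Each point is a further probe of a gene in the set that was bright enough to be tested, with its mean processed intensity in controls on a log axis and its log2 fold change of overexpressor over control. Filled points were above background on all 6 arrays. The 124 points have a median of -0.10, and Dppa4, Serpina5, Foxr1, Dnmt3l and Sohlh1 are among those below -1.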

How the data were processed

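Total RNA of 6 fetal testis pairs, labelled with biotin, was hybridised to Illumina BeadChip arrays, as the labels' protocols say. GenomeStudio 2010.3 is the tool that the submitters' processing notes name. The deposited raw table holds, per the file headers, each probe's mean bead intensity, its bead count, the standard error of the bead intensity and a detection p-value. The authors' processed intensity equals the raw signal multiplied by 1 factor per array. Median bead counts of the deposited table were 41 to 42 per probe. Among members the median standard error of the bead intensity was between 3.71% (overexpressor 2) and 4.5% (control 1) of the signal. The beads and the number of arrays both limit the precision. The sources used here name no genome build. No columns of per-sample values were left unused for want of a sample (0).

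Of 45281 probes 34885 carry 1 gene symbol, 18 several and 10378 none. Entrez identifiers of 34807 probes were found among the RefSeq genes of GRCm38.p6, whose current symbols were taken. Probes with several symbols name no gene here. The rule was applied to the raw signals and detection p-values. In R 4.3.3, limma 3.58.1 was used to normalize all probes by neqc (offset 16, background from detection p-values), and the 19889 probes with a detection p under 0.05 on at least 3 arrays were compared by limma's moderated test, two-sided, with Benjamini-Hochberg adjustment over all of them and a threshold of 0.05. The method was tested on simulated data. For lists, the brightest probe stands for a gene. The replicate number is the dam, and littermates deviated from their group means together (correlations 0.252, 0.426 and 0.304), so the dam as a block is an alternative. Other alternatives changed the background correction, the scaling, the source of values, the filter, the rule's cutoffs and the arrays included.

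The members and lists were chosen with earlier results of these data known. Named are the marker genes C1ql2, Krt42 and Ly6g6e, the 30 named members with the lowest fold changes, the 10 brightest named members undetected in all overexpressors, members in a list, members past the threshold, members and others at the edges of the rule, and list genes past the threshold. Further genes, such as Axl, H3f3a, Tgfbr2, Nanos2, Dazl, Ddx4, Amh, Eif2s3y, Kdm5d, Sox9, Cyp17a1, Krt5, Krt8, Krt14 and Trp63, were chosen after their values were seen. Not every gene that this rule allows is described.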

Additional observations from a re-analysis of the deposited data

How the results depend on the processing

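The number of members depended on the detection cutoff and the arrays included. Of 186 members, 52 remained when absence was required on all 3 overexpressor arrays, 24 when detection had to be under 0.01 on all controls, and 34 differed by more than 2 combined bead standard errors in every dam. With 0.01 as the cutoff on both sides 140 probes met the rule, of which 24 were among the 186. Leaving out 1 array gave 82 to 455 members (137, 114 and 82 without overexpressors 1 to 3, and 455, 385 and 446 without controls 1 to 3), partly by construction, since the rule then asks for fewer control arrays or for both overexpressors. With dam 2 left out 93 of the 186 remained among 218.

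Over all probes 113 changed (81 higher, 32 lower), against 157 with the dam as a block (93 higher, 64 lower, 96 shared), 67 with no filter on dim probes and 32 to 99 with 1 array left out (32, 68 and 99 without overexpressors 1 to 3, and 49, 54 and 60 without controls 1 to 3). Of list genes with no member probe 17 changed, against 28 with the dam as a block, 9 with no filter and 5 to 21 with 1 array left out (5, 10 and 21 without overexpressors 1 to 3, and 8, 10 and 9 without controls 1 to 3). For Krt42, C1ql2 and Ly6g6e no alternative reversed the direction. Nothing is read from this, because the rule had asked for a lower signal in the overexpressor of every dam. Without background correction they stood at -1.08, -0.56 and -0.60, and in the authors' processed table at -1.11, -0.60 and -0.62. The fit called 2 to 5 members with 1 array left out (2 without overexpressor 1, and 3 without control 1 or control 3), against 5 with all arrays. The settings with dam 2 left out and with the bead errors were chosen after seeing the data. Signal over background limits all of these values, since most members lay near the detection threshold.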
